A study of Mus musculus with 12 samples.

Results

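The MHC class I genes described here are 10 genes chosen by symbol: the heavy chains H2-K1, H2-D1, H2-T22, H2-T23, H2-T3, H2-T10 and H2-M3, the light chain B2m, the peptide transporter subunit Tap1 and the transcriptional regulator Nlrc5. All 10 were found among the 54532 genes of the count table and all 10 were among the 16904 genes that passed the filter on low counts. They were chosen with earlier results of these libraries known, so their values are given as a description, and counts of members past a threshold stand beside the same counts over all genes without being read as a result. Other genes of the pathway were tested over all genes, and their lists too were written with earlier results known.

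RNA-Seq was done on colon pieces of 12 wild-type male C57BL/6J mice, obtained at 5 weeks of age, in 4 groups of 3. The control group was not given DSS (dextran sodium sulfate), whose uptake in drinking water damages the colonic lining and causes colitis. The model group received DSS alone, the Rhy group received DSS with the alkaloid rhynchophylline (Rhy), and the DXM group received DSS with the glucocorticoid dexamethasone (DXM) at 4 mg/kg. Rhy was given in the study at 2, 4 or 8 mg/kg, and the labels do not say which of these doses the sequenced mice had. Each library was taken as 1 mouse, and nothing in the labels pairs mice across groups.

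Class I molecules are heavy chains that pair with β2-microglobulin and show peptides at the cell surface. Peptides cut by the proteasome reach the heavy chains through the TAP transporter, and NLRC5 and interferon-induced factors switch on many of the genes together. The classical molecules H2-K and H2-D present to CD8 T cells, whereas the products of the T and M regions are non-classical. Among these, H2-T23 encodes Qa-1, a ligand of CD94/NKG2 receptors, and H2-T3 encodes the TL antigen, which binds CD8αα on intraepithelial lymphocytes and is known from the intestinal epithelium. H2-T10 and H2-T22 encode ligands of some gamma delta T cell receptors, and H2-M3 presents N-formylated peptides. The annotation of the count table labels H2-T10 a polymorphic pseudogene.

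The promoters of H2-T23, H2-T22, H2-T3 and H2-K1 are shown because these were the T-region members and the classical heavy chain that varied most across the libraries, with H2-T23 and H2-T22 splitting the same libraries and H2-T3 and H2-K1 each having another order. Each line gives the 250 bases before the start site in the RefSeq promoter table on GRCm38.p6, read 5′ to 3′ on the strand of the gene. Capitals mark matches on either strand to GTTTCACTT (the core of the interferon element of class I promoters), to GGGATTCCC (a kappa B core) and to CCAAT.

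H2-T23, chr17:36032702-36032951, strand -: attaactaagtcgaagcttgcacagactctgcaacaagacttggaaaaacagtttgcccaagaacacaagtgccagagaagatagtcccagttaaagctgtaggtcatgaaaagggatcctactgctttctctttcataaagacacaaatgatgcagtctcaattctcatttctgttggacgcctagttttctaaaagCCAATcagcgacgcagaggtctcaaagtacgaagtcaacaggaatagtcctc
H2-T22, chr17:36042743-36042992, strand -: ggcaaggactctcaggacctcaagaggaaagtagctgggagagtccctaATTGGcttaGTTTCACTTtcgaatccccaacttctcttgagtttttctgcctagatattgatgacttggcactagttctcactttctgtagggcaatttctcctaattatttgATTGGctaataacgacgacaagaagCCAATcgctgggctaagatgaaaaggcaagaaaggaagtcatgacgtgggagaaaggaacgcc
H2-T3, chr17:36190152-36190401, strand -: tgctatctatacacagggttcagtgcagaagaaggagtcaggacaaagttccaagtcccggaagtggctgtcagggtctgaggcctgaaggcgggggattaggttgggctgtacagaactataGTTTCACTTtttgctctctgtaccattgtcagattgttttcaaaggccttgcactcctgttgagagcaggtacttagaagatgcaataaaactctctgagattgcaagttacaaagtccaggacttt
H2-K1, chr17:34000334-34000583, strand -: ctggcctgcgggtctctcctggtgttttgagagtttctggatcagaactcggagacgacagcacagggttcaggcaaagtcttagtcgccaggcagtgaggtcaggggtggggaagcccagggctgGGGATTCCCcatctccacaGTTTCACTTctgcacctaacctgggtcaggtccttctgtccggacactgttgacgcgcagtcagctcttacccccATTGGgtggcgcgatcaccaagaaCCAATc

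Promoter entries were matched for 8 of the 10 members, with none for H2-T10 and Nlrc5. GTTTCACTT was found in the promoters of H2-K1, H2-D1, H2-T22, H2-T3 and H2-M3, and in 0.352% of all 27025 promoters of the same length. GGGATTCCC was found in H2-K1 and H2-D1, and in 0.311% of all promoters. CCAAT, which is short and common, was found in 34.5% of all promoters and in each matched member except H2-T3. The window of H2-T23 held CCAAT alone, and those of B2m and Tap1 likewise. The 3 motifs were picked with these promoters in view and do not overlap each other as letters, and a match or its absence describes this window only.

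Total counts ranged from 14346478 to 17749716 per library, and values are given as CPM, counts scaled to the size of each library on edgeR's TMM scale. Model 1 and model 2 resembled each other closely, with a common dispersion (variance beyond counting noise) of 0.00201 against 0.0604 to 0.351 in the 65 other pairs, so they add little separate evidence on the spread of the model group. Markers of the colonic epithelium were present in every library, and their summed level ran from 9911 CPM in DXM 3 to 34609 CPM in control 2. Among them, Car1 ran from 509 to 17737 CPM and Epcam from 1144 to 2207 CPM. Hoxb13, a gene of the distal colon, was at 0.165 CPM in control 3, 1.49 CPM in model 3 and 0 in Rhy 1, against 72.0 to 316 CPM in the other 9 libraries. The pieces therefore differed in the expression of a position gene within 3 of the 4 groups.

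Per length, B2m and the classical heavy chains were the most abundant members. The median over the 12 libraries was 1050 FPKM for B2m, 707 FPKM for H2-D1 and 241 FPKM for H2-K1, on the authors' scale of reads per length. The ranges of B2m (712 to 1901 FPKM) and H2-D1 (595 to 1506 FPKM) overlapped, as did those of H2-D1 and H2-K1 (139 to 660 FPKM). The medians of the other members were 14.3 FPKM for H2-T23, 10.6 for H2-T3, 10.4 for Tap1, 5.27 for H2-M3, 4.19 for H2-T10, 4.18 for H2-T22 and 1.08 for Nlrc5, and the ranges of neighbours in this order overlapped. The sum of all heavy chains divided by B2m, both in FPKM, was 0.931 to 1.69 with a median of 1.13. In pieces of whole tissue, fewer cells of a type and less RNA per cell cannot be told apart.

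**Figure D1:**
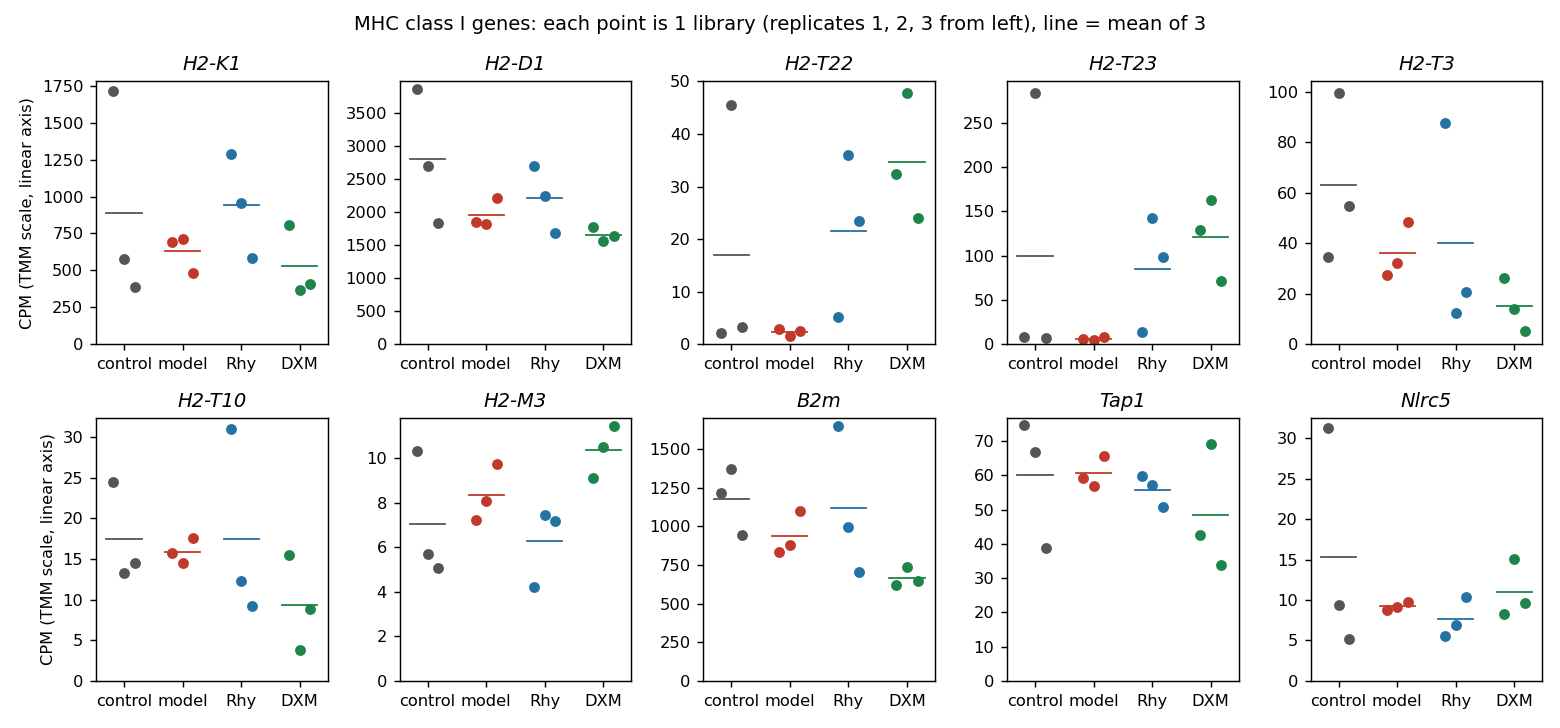
CPM of the 10 members on linear axes that start at 0, by group; each point is a library (replicates 1 to 3 from left to right) and each line is the mean of 3. In the H2-T22 and H2-T23 panels control 2 and Rhy 1 stand away from the other libraries of their groups, and the 3 model libraries lie near 0.

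H2-T23 split the libraries more widely than any other member, and the split followed the treatment groups only in part. It ran within the control and Rhy groups, while all 3 DXM libraries lay on the upper side and all 3 model libraries on the lower. The control libraries held 8.39, 283 and 6.70 CPM, and the model libraries 5.52, 4.55 and 8.34 CPM. The Rhy libraries held 13.4, 142 and 98.8 CPM, and the DXM libraries 128, 162 and 71.6 CPM. Thus 6 libraries (control 2, Rhy 2, Rhy 3 and the 3 DXM libraries) lay at 71.6 CPM or above, and the other 6 at 13.4 CPM or below, with no library in between. The ratio across this gap was 5.36, and the highest library had 65.1 times the FPKM of the lowest. The counts behind it were 1414 to 4069 reads in the upper libraries and 75 to 156 in the lower, so counting error is small beside the gap.

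H2-T22, which lies 7.36 kb from H2-T23, split the same libraries. It was at 2.10, 45.5 and 3.18 CPM in the control group and at 2.92, 1.58 and 2.56 CPM in the model group. It was at 5.22, 36.0 and 23.5 CPM in the Rhy group and at 32.4, 47.8 and 24.1 CPM in the DXM group. The gap lay between Rhy 1 and Rhy 3, at a ratio of 4.50. H2-T23 over H2-T22 in FPKM stayed between 2.23 and 7.35 across libraries in which the highest FPKM of H2-T22 was 30.6 times its lowest.

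On the log2 CPM scale (prior count of 2), the SD was 2.25 for H2-T23 and 1.92 for H2-T22. These SDs are over the 12 libraries, with model 1 and model 2 counted separately. Among all genes tested, 0.426% had an SD as large as that of H2-T23 and 0.923% one as large as that of H2-T22, and the median SD was 0.457. H2-T3 had an SD of 1.20, which 5.22% of genes reached. The SDs of the other 7 members were 0.35 to 0.76. Tap1, H2-D1, B2m and H2-M3 had SDs below the median of all genes.

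Neighbouring T-region genes were examined because reads of near-identical genes can be assigned to the wrong one. H2-T24 was at 12.6 CPM in control 2, 4.90 and 4.07 CPM in Rhy 2 and Rhy 3 and 3.84, 3.90 and 2.33 CPM in the DXM libraries, against 0.599 to 1.87 CPM in the other 6. Gm8909, a gene model 135 kb from H2-T23, was at 10.8 CPM in control 2 and at 0.709 to 2.47 CPM in the Rhy 2, Rhy 3 and DXM libraries. Its other values were 0.0607 to 0.749 CPM, so DXM 3 lay just below control 1. H2-T10 did not share the pattern and tended the other way. It was at 24.5, 13.3 and 14.5 CPM in the control group and 15.7, 14.4 and 17.5 in the model group. Levels were 31.0, 12.3 and 9.17 CPM in the Rhy group, and 15.4, 3.81 and 8.86 in the DXM group. The 6 libraries with high H2-T23 thus held 3.81 to 15.4 CPM, and the other 6 held 14.4 to 31.0 CPM. Over 11 profiles of log2 CPM (model 1 and model 2 averaged), H2-T10 had a correlation of -0.64 (Spearman -0.66) with H2-T22. With H2-T23 it was -0.59 (Spearman -0.52). H2-T22 over H2-T10 in FPKM ran from 0.0858 in control 1 to 12.6 in DXM 2, with 2.11 as the lowest value among the 6 libraries with high H2-T23 and 0.219 as the highest among the other 6.

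**Figure D2:**
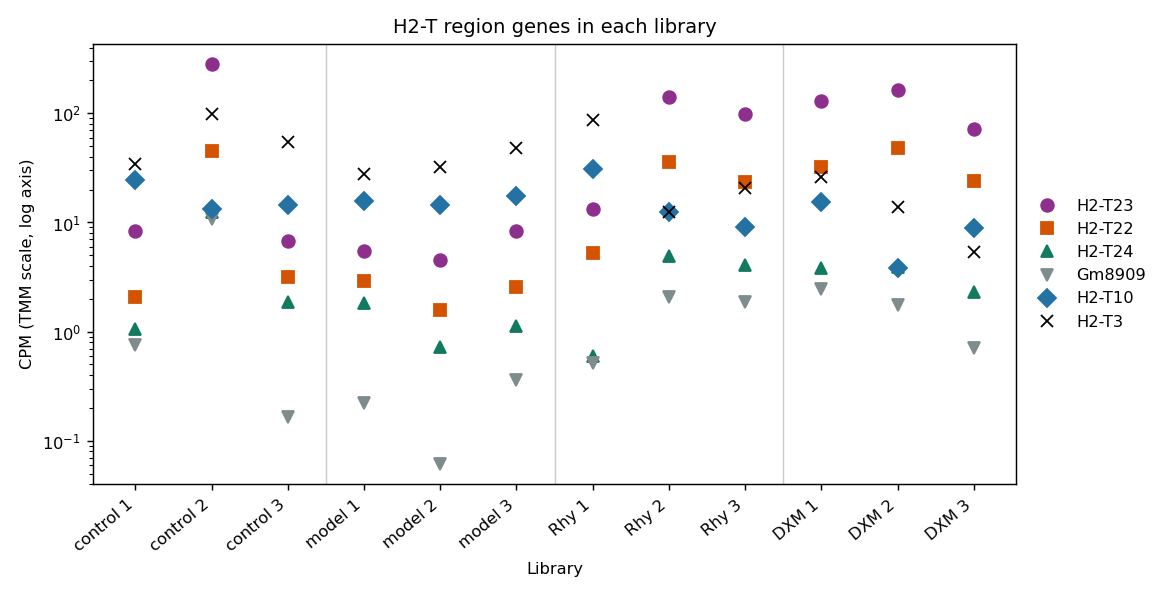
CPM of H2-T23, H2-T22, H2-T24, Gm8909, H2-T10 and H2-T3 in each of the 12 libraries, on a log axis; grey lines part the groups. H2-T23 and H2-T22 are high in control 2, Rhy 2, Rhy 3 and the 3 DXM libraries, whereas H2-T10 runs from 3.81 CPM in DXM 2 to 31.0 CPM in Rhy 1.

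The sums over related T-region genes kept part of the split. H2-T10 and H2-T22 share 6.92% of the 100-base windows of H2-T22 and 31.2% of its 50-base windows, so single reads cannot always be placed between them. Their sum was 26.6, 58.8 and 17.7 CPM in the control group, 18.6, 16.0 and 20.1 in the model group, 36.2, 48.4 and 32.6 in the Rhy group, and 47.9, 51.6 and 32.9 in the DXM group. H2-T22 made up between 7.89% and 92.6% of this sum. H2-T23 shares 3.15% of its 100-base windows with other genes, and the largest share with a named partner was 1.92%, with Gm7030, which was at 1.32 CPM or below in every library. The sum of 12 T-region genes was 498 CPM in control 2, 118 to 240 CPM in Rhy 1 to 3 and the DXM libraries, and 60.2 to 95.5 CPM in the other 5.

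H2-T22 exons overlap those of the antisense gene A930015D03Rik over 29.4% of their length, and H2-T10 exons overlap those of BC023719 over 27.1%. The sources do not state whether strand was used in counting, and reads there cannot be told apart from antisense reads without it. A930015D03Rik had at most 0.0596 CPM in any library and BC023719 had no count. H2-T23, at chr17:36029773-36032855 on the minus strand (GRCm38, from the count table), had no exon base shared with another annotated gene.

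**Figure D3:**
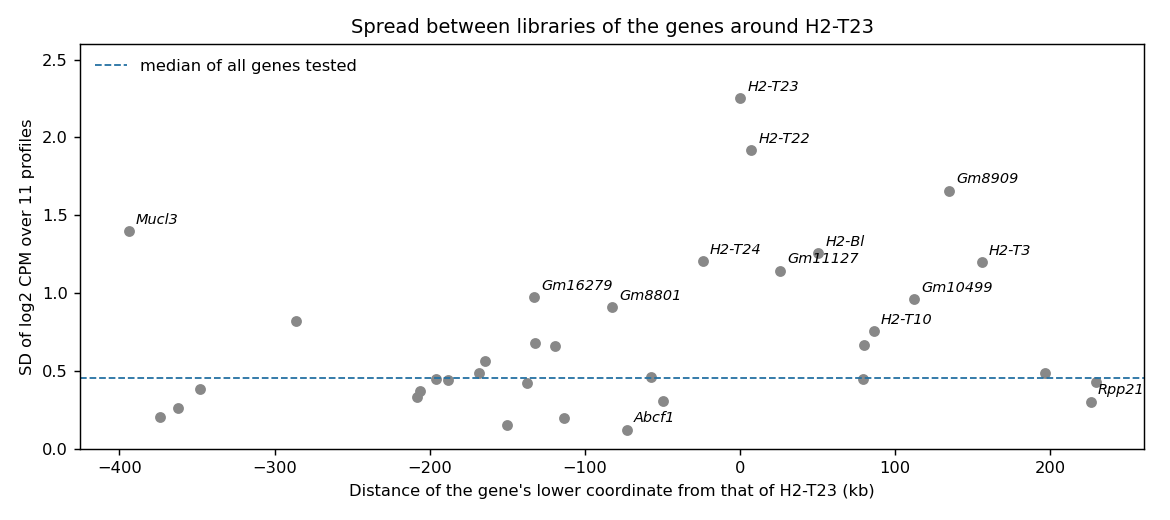
SD of log2 CPM for the 35 tested genes within 500 kb of H2-T23, against the distance of their lower coordinate from that of H2-T23. The SDs are over the 12 libraries, although the axis label says 11 profiles. The dashed line is the median of all genes tested. H2-T23 (2.25), H2-T22 (1.92) and Gm8909 (1.66) stand highest, and Abcf1, 73.0 kb away, is at 0.12.

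Genes outside the class I lists with the profile most like H2-T23 were Ces1b, Matn2, Amd2, Dmrta2 and Fmo1, none of them on chromosome 17. Correlations here and below are over 11 profiles of log2 CPM, with model 1 and model 2 averaged. The Pearson correlations of these genes with H2-T23 were 0.867 to 0.909, given as a ranking only, since the libraries fall at separate levels. This ranking was added after the values of H2-T23 had been seen. Matn2, which encodes a matrix protein, was at 30.6 CPM in control 2 and at 13.8, 18.9, 19.4, 18.7 and 23.7 CPM in Rhy 2, Rhy 3 and DXM 1 to 3. Its other 6 libraries were at 8.13 to 10.3 CPM. Fmo1, a flavin monooxygenase, was at 9.87 CPM in control 2, 10.4 and 8.60 CPM in Rhy 2 and Rhy 3, 11.8, 5.50 and 8.36 CPM in the DXM libraries and 3.08 to 4.47 CPM elsewhere. Ces1b and Dmrta2 stayed under 1 CPM throughout.

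H2-T3 had another order of libraries. It was at 34.7, 99.5 and 54.8 CPM in the control group, 27.6, 32.2 and 48.5 in the model group, 87.6, 12.4 and 20.5 in the Rhy group, and 26.1, 13.9 and 5.37 in the DXM group. The highest libraries were control 2 and Rhy 1, which lay on opposite sides of the H2-T23 gap, and the lowest was DXM 3. H2-T3 shared no 100-base window with any other gene.

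The 5 genes outside the lists most like H2-T3 were Prpsap1, Pparg, Ppfibp2, Crybg1 and Slc35d2, with Pearson correlations of 0.975 to 0.991 and Spearman correlations of 0.973 to 0.991 over the 11 profiles. Without the profiles farthest from the H2-T3 median (control 2 and DXM 3), the Pearson correlations were 0.947 to 0.982. Pparg, a nuclear receptor of lipid metabolism and of differentiated colonocytes, was at 80.0, 207 and 134 CPM in the control group and 76.5, 77.7 and 140 in the model group. It was at 166, 49.96 and 51.7 CPM in the Rhy group and 75.1, 49.8 and 18.8 in the DXM group. These are descriptions across libraries that also share depth and tissue makeup.

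Summed marker levels moved with H2-T3. The summed epithelial markers were highest in control 2 (34609 CPM) and lowest in DXM 3 (9911 CPM), where H2-T3 was also highest and lowest, and their correlation with H2-T3 was 0.835 (Spearman 0.727) and 0.604 without these profiles. The summed proximal-colon markers (5 genes, 833 to 5744 CPM) had a correlation of 0.862 (Spearman 0.882), or 0.739 without the same profiles. The summed distal-colon markers (3 of 4 found, 24.9 to 442 CPM) had one of -0.72 (Spearman -0.86), or -0.83. Sums of CPM follow their most abundant genes, so the epithelial sum cannot be read as epithelial content. In it, Car1 ran from 509 to 17737 CPM and Krt20 from 371 to 2687 CPM. Epcam ran from 1144 to 2207 CPM, Cdh1 from 547 to 1058 CPM and Krt8 from 5283 to 9534 CPM. In the proximal sum, Cyp2c55 ran from 36.3 to 4537 CPM and Hao2 from 219 to 406 CPM. The part of these markers in the H2-T3 differences was not tested.

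**Figure D4:**
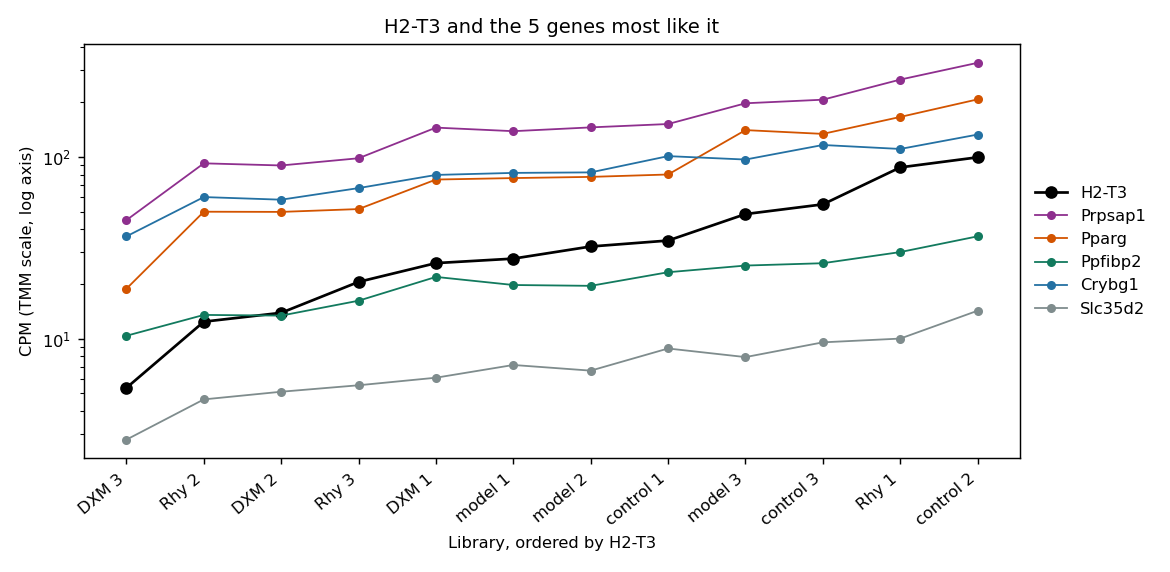
CPM of H2-T3 and of the 5 genes most like it on a log axis, with the 12 libraries ordered by H2-T3. From DXM 3 to control 2, H2-T3 goes from 5.37 to 99.5 CPM and Pparg from 18.8 to 207 CPM.

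Of the classical heavy chains, H2-K1 varied more than H2-D1. H2-K1 was at 1714, 576 and 385 CPM in the control group, 694, 715 and 485 in the model group, 1288, 958 and 583 in the Rhy group, and 805, 369 and 405 in the DXM group. H2-D1 was at 3872, 2695 and 1838 CPM in the control group and 1850, 1819 and 2220 in the model group. It was at 2704, 2241 and 1686 CPM in the Rhy group and 1772, 1567 and 1645 in the DXM group. Control 1 was the highest library for both genes, and the 4 groups overlapped for H2-K1. H2-D1 made up 67.7% to 82.7% of the reads of the pair, and H2-D1 over H2-K1 in FPKM was 2.12 to 4.83. H2-K1 shares 0.957% and H2-D1 3.59% of their 100-base windows with other genes.

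The pair summed to 5586, 3271 and 2223 CPM in the control group, 2544, 2534 and 2705 in the model group, 3992, 3199 and 2268 in the Rhy group, and 2577, 1936 and 2050 in the DXM group. H2-K1 and H2-D1 had a correlation of 0.769 over the 11 profiles (Spearman 0.673), which was 0.370 without control 1 and Rhy 1, so it rests on those libraries. The genes most like their sum were Vps28, Necap2, Sap30l, Il10rb and Clic1, with Pearson correlations of 0.950 to 0.973, and 0.856 to 0.959 without the same libraries. Of the Q-region heavy chains, H2-Q4 (60.0 to 216 CPM) and H2-Q2 (64.3 to 235 CPM) were the most abundant by count. H2-Q6 shares 8.36% of its 100-base windows with H2-Q7, and the 2 genes summed to 11.7 to 54.2 CPM.

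B2m was at 1214, 1368 and 945 CPM in the control group, 832, 879 and 1097 in the model group, 1650, 998 and 703 in the Rhy group, and 622, 734 and 646 in the DXM group. Its DXM libraries lay below the 3 model libraries, and Rhy 1 was the highest of all 12. B2m followed H2-D1, with a correlation of 0.810 (Spearman 0.882) over the 11 profiles and 0.907 without control 1 and Rhy 1.

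Tap1 was the most even member. It was at 74.8, 67.0 and 38.8 CPM in the control group, 59.3, 56.8 and 65.7 in the model group, 59.8, 57.1 and 50.6 in the Rhy group, and 42.7, 69.1 and 33.9 in the DXM group. Its lowest libraries were DXM 3 and control 3. Over the 11 profiles it went with Igtp, an interferon-induced GTPase (0.934, Spearman 0.955) and with the immunoproteasome subunit Psmb9 (0.808, Spearman 0.836). Without DXM 3 and control 3 these were 0.879 and 0.714. Tap1 and Psmb9 share 212 exon bases on opposite strands.

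Nlrc5 was at 31.2, 9.39 and 5.16 CPM in the control group, 8.82, 9.16 and 9.71 in the model group, 5.56, 6.92 and 10.4 in the Rhy group, and 8.30, 15.1 and 9.67 in the DXM group. Control 1 stood above all other libraries, and the same library was the highest for H2-K1, H2-D1 and Tap1. Over the 11 profiles, however, Nlrc5 had correlations of 0.270 (Spearman -0.11) with H2-K1 and 0.386 (Spearman -0.21) with H2-D1. With B2m it was -0.065 (Spearman -0.13), with Tap1 0.515 (Spearman 0.536) and with H2-M3 0.668 (Spearman 0.682). Nlrc5 went with Ciita, the regulator of class II genes (0.809, Spearman 0.918; 0.852 without control 1 and control 3). H2-M3 was at 10.3, 5.70 and 5.05 CPM in the control group, 7.23, 8.07 and 9.71 in the model group, 4.20, 7.44 and 7.19 in the Rhy group, and 9.12, 10.5 and 11.4 in the DXM group. Its levels also went with Ciita (0.871, Spearman 0.836), and the correlation was 0.692 without Rhy 1 and control 3. Those libraries had the lowest summed B cell markers, at 1.63 and 10.3 CPM against 104 to 191 CPM in the others. The correlation of H2-M3 with these markers was 0.791 (Spearman 0.591), or 0.260 without Rhy 1 and control 3. The same libraries had Hoxb13 at 0 and 0.165 CPM. The part of B cells or of colon position was not tested.

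Model against control asks how DSS colitis changes the genes. Of the members, 2 had a higher and 8 a lower mean log2 level in the model group, with a median log2 fold change of -0.51 against 0.01 over all genes tested. The log2 fold changes were -4.02 ± 1.31 (SE, n = 3 per group) for H2-T23 and -2.84 ± 1.04 for H2-T22, and -0.80 ± 0.70 for H2-T3. H2-K1 was at -0.50 ± 0.52, H2-D1 at -0.51 ± 0.29, B2m at -0.33 ± 0.30 and Nlrc5 at -0.72 ± 0.53. H2-T10, H2-M3 and Tap1 lay between -0.13 and 0.25. No member's groups were without overlap, where 10.4% of all genes were higher and 6.61% lower without overlap. None of the 10 had an adjusted p under 0.05 with edgeR, as none of all genes (0%).

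The H2-T values of this comparison rested on control 2. Without it, the log2 fold change was -0.29 for H2-T23, -0.17 for H2-T22 and -0.30 for the sum of T-region genes, which had been -1.66 ± 0.59. Without control 1, H2-K1 was at 0.39 and Nlrc5 at 0.35, both on the other side of 0, and the sum of H2-K1 and H2-D1 went from -0.51 ± 0.34 to -0.08.

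Rhy against model compares colitis with and without Rhy. Since the H2-T23 and H2-T22 levels also split the mice within the control and Rhy groups, their group differences are not read here as differences between treatments. H2-T23 and H2-T22 were higher in all 3 Rhy libraries than in any model library, at 3.79 ± 1.29 and 3.19 ± 1.05 on the log2 scale. They were the 2 of 10 members without overlap, where 5.51% of all genes were higher and 6.02% lower without overlap, and Rhy 1 was at 13.4 and 5.22 CPM for them, against at most 8.34 and 2.92 CPM in the model libraries. The sum of H2-T10 and H2-T22 was at 1.10 ± 0.37 and the sum of T-region genes at 1.36 ± 0.58. H2-K1 was at 0.58 ± 0.52, B2m at 0.25 ± 0.30, H2-D1 at 0.17 ± 0.29 and H2-M3 at -0.41 ± 0.32, and the other 4 members lay between -0.27 and 0.15. The median of the members was 0.16, against -0.01 over all genes. None of the 10 had an adjusted p under 0.05 with edgeR, as none of all genes (0%).

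H2-T3, H2-T10 and B2m changed sign without Rhy 1, at -1.13, -0.56 and -0.14. With Rhy 1 kept, H2-T3 was also below 0 with limma on log2(FPKM + 0.1), at -0.28. With the replicate number as a block, H2-T3 was at -0.20 and H2-T10 at -0.07. The sign was opposite in 6 of 23 alternatives for H2-T3, 3 of 22 for H2-T10 and 1 of 23 for B2m. Rhy 1 is also the library with no Hoxb13 count and with the lowest summed B cell markers.

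DXM against model makes the same comparison for the glucocorticoid. H2-T23 and H2-T22 were again higher without overlap, at 4.30 ± 1.32 and 3.88 ± 1.07, and H2-D1, B2m and H2-T3 were lower without overlap, at -0.24 ± 0.29, -0.49 ± 0.30 and -1.26 ± 0.71. Of all genes, 10.4% were higher and 12.2% lower without overlap. H2-T10 was at -0.77 ± 0.51, Tap1 at -0.32 ± 0.28, H2-K1 at -0.26 ± 0.52, H2-M3 at 0.31 ± 0.32 and Nlrc5 at 0.26 ± 0.53. The median of the members was -0.25, against -0.01 over all genes. None of the 10 had an adjusted p under 0.05 with edgeR, as none of all genes (0%). All 3 DXM libraries had Hoxb13 at 195 to 236 CPM, and with log2 Hoxb13 as a covariate H2-T23 was at 3.37, H2-T22 at 3.27, H2-T3 at -0.86, H2-M3 at 0.16 and Nlrc5 at -0.03. With a library left out, H2-K1 ran from -0.71 (without DXM 1) to -0.06 (without DXM 2), H2-T10 from -1.33 to -0.39 with the same libraries left out, and H2-T3 from -1.90 (without DXM 1) to -0.86 (without DXM 3). Tap1 ran from -0.66 (without DXM 2) to -0.11 (without DXM 3), and Nlrc5 was at -0.04 without DXM 2. The 3 comparisons share the model libraries, so their values are not independent.

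**Figure D5:**
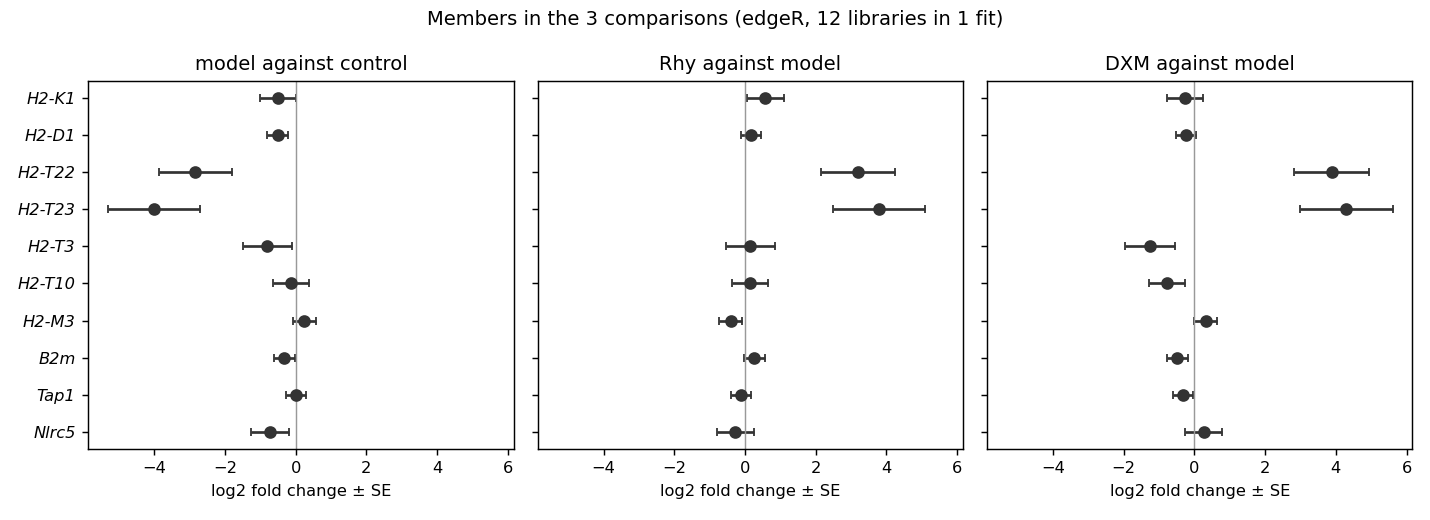
Log2 fold change ± SE of the 10 members from edgeR, first group over second, in the 3 comparisons. H2-T23 and H2-T22 lie at -4.02 and -2.84 in model against control and at 3.19 to 4.30 in the others, while the other 8 members lie between -1.26 and 0.58.

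The other genes of the class I pathway were listed by role: Q-, T- and M-region heavy chains, peptide loading, immunoproteasome, regulators, class I-like genes outside the H2 complex, and class I receptors with their lymphocytes. Of 70 genes, 68 were found and 50 tested. None passed an adjusted p of 0.05 in any of the 3 comparisons with edgeR, DESeq2 or limma. At an unadjusted p under 0.05, edgeR had 1 higher and 7 lower in model against control, 2 higher and 0 lower in Rhy against model, and 3 higher and 0 lower in DXM against model. The corresponding shares of all genes were 9.62%, 3.72% and 7.69%. DESeq2 had 10, 4 and 3 of 62 pathway genes at that level, and 6.62%, 3.06% and 5.54% of all genes. With limma the numbers were 4, 1 and 1 on log2(FPKM + 1) and 4, 2 and 2 on log2(FPKM + 0.1), of 50 pathway genes. The limma shares of all genes were 9.38%, 3.73% and 7.94% on the first scale and 9.12%, 3.68% and 7.44% on the second.

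In model against control, 37 of the 50 were lower and 13 higher, with a median log2 fold change of -0.30. The 7 lower genes at an unadjusted p under 0.05 (H2-K2, H2-T24, H2-Bl, Gm8909, Ifngr1, Ifngr2 and Jak2) all had their highest level of the 12 libraries in control 2, the library on which the H2-T values rested. The smallest adjusted p with edgeR was 0.459, for Jak2, a kinase of interferon signalling, at 66.0, 125 and 96.0 CPM in the control and 56.1, 55.3 and 54.3 CPM in the model group. Ifngr2, an interferon gamma receptor chain, was at 159, 258 and 174 CPM against 122, 118 and 124 CPM. The regulators, 8 of 10 lower, held 3 of the 7 at an unadjusted p under 0.05. The T-region list had all 7 tested genes lower, with Gm8909 at -4.15 ± 1.31 and H2-Bl at -2.07 ± 0.93. The Q-region list had 5 of 7 lower with the pseudogene H2-K2 at -1.37 ± 0.56, from 16.6, 60.5 and 23.1 CPM in the control group against 12.5, 9.47 and 16.9 CPM, and H2-Q6 at -0.63 ± 0.45. Mr1, which presents riboflavin-related metabolites to MAIT cells, was at -0.37 ± 0.28. The peptide loading list had 4 of 7 higher, 2 of them without overlap, and 3 lower, 1 of them without overlap. Of all genes, 10.4% were higher and 6.61% lower without overlap. The chaperones Canx and Calr, which fold heavy chains, were higher in all 3 model than in all 3 control libraries, at 0.59 ± 0.36 and 0.52 ± 0.35. Tapbp was lower in all 3 model than in all 3 control libraries, at -0.43 ± 0.23. Cd1d1, which presents lipids to NKT cells, was at 5.28 against 2.80 CPM. The immunoproteasome had 4 of 5 lower, with Psme1 at -0.23 ± 0.28 and Psme2 at -0.22 ± 0.31, and the receptor list 7 of 9 lower, with Trdc at -1.07 ± 0.59 and Klrd1 at -0.98 ± 0.59. Trdc, the constant segment of the delta T cell receptor chain, was at 4.57, 0.765 and 1.87 CPM in the control group, so control 1 set its value, against 0.882 to 1.37 CPM in the model group.

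In Rhy against model, 27 of the 50 were higher and 23 lower, with a median of 0.03. H2-Q1, a Q-region heavy chain, was at 40.9 against 19.9 CPM, higher in all 3 Rhy libraries (28.1, 52.7 and 41.8 CPM against 22.4, 23 and 14.2). The receptor gene Klrk1 was at 2.17 against 0.916 CPM, with overlap. It was highest in Rhy 2 at 3.66 CPM. Gzmb, a cytotoxic granule protease, was at -1.04 ± 0.93, Gm8909 at 2.78 ± 1.29 and H2-Bl at 1.40 ± 0.92. The immunoproteasome had 4 of 5 higher, with a median of 0.14, peptide loading 3 of 7 higher, with a median of -0.0025, and the regulators 7 of 10 higher, with a median of 0.16. Rfx5 was at -0.53 ± 0.33, Irf2 at 0.27 ± 0.25, Mr1 at 0.36 ± 0.28 and Cd1d1 at -0.48 ± 0.36. The lowest adjusted p of every list was 1 with edgeR.

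In DXM against model, 22 of the 50 were higher and 28 lower, with a median of -0.04. H2-Q1 was at 53.4, 30.8 and 77.6 CPM in the DXM libraries, higher than all 3 model libraries, at 1.44 ± 0.38 and an adjusted p of 0.622 with edgeR. Cd8b1, a CD8 chain, was at 1.79 ± 0.74, but DXM 1 held 3.36 CPM and the other DXM libraries 0.337 and 1.22 CPM, and the groups overlapped (model at 0.238 to 0.717 CPM). Gm8909 was at 2.89 ± 1.29, Gm11127 at -1.60 ± 0.85, H2-Q10 at -0.96 ± 0.61, Gzmb at -1.40 ± 0.94 and Rfxap at -0.34 ± 0.18. Mr1 was at 0.50 ± 0.28 and Fcgrt, the neonatal Fc receptor, at 0.15 ± 0.39. Peptide loading had 6 of 7 lower, with Canx at -0.45 ± 0.36 and Tapbpl at -0.39 ± 0.27, and the immunoproteasome 4 of 5 lower, with Psmb8 at -0.33 ± 0.46. The single tested M-region gene, H2-M2, lay between -0.19 and 0.39 in the 3 comparisons.

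Class II genes and interferon-stimulated genes were counted beside the members, since they share regulators with them. Of 7 class II genes, 4 were lower in model against control, 5 in Rhy against model and 7 in DXM against model, with medians of -0.03, -0.53 and -0.37. H2-Eb1 ran from 2.25 CPM in control 3 to 187 CPM in control 1, and H2-DMb1 was likewise highest in control 1 at 63.0 CPM. Cd74, the invariant chain, was at -0.95 ± 0.60 in Rhy against model and -0.61 ± 0.59 in DXM against model. Of 23 interferon-stimulated genes, 21 were lower in model against control and 19 higher in Rhy against model, with medians of -0.54 and 0.55. In DXM against model 8 were higher and 15 lower, with a median of -0.33. Of all 16904 genes tested, 8339 were lower in model against control and 8165 higher in Rhy against model. In DXM against model 8711 of all genes were lower, and the medians were 0.01, -0.01 and -0.01. Rhy 1 held the highest level of the 12 libraries for Isg15, Ifit2, Irf7, Oasl2, Oas1a, Rtp4, Usp18 and Irgm1. DXM 3 held the lowest level of each of these genes. The weight of single libraries in these counts was not tested. Ifit3 was at 13.6, 72.1 and 18.7 CPM in the control group, so its control mean rested on control 2, at 12.8 to 13.9 CPM in the model group and at 52.4, 37.4 and 25.3 CPM in the Rhy group. Ifit1 was also highest in control 2, at 268 CPM. Ifit2 was at 31.7, 42.4 and 10.1 CPM in the DXM group against 83.8 to 97.4 CPM in the model group, and Gbp4 at 0.98 ± 0.45. None of these genes had an adjusted p under 0.05 with edgeR. At an unadjusted p under 0.05, edgeR had 2, 4 and 2 of the 23 interferon-stimulated genes in the 3 comparisons. It had 0 of the 7 class II genes, where 9.62%, 3.72% and 7.69% of all genes reached that level.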

How the data were processed

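Total RNA of colon pieces from 12 mice was sequenced as mRNA libraries on a HiSeq X10. The authors deposited raw read counts for each gene, without normalization. The submitters' processing notes name HISAT2 2.0.5, featureCounts 1.5.0-p3, DESeq2 1.16.1 and mm10, and the handling of strand and of reads with several matches is not given in the sources used here. The deposited FPKM values are the same counts over gene length and a library constant, and all 130086 values compared fell within 1% of this. All columns belong to listed samples. Coordinates matched GENCODE M21 for 98.3% of shared gene identifiers, but not for H2-K1, whose coordinates are those of the count table.

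Tests were made with edgeR 4.0.16 under R 4.3.3 (TMM, filterByExpr at a minimum count of 10, quasi-likelihood F tests by glmQLFTest, two-sided, 12 libraries in 1 fit, Benjamini-Hochberg adjustment over all 16904 genes tested). DESeq2 1.42.0 and limma 3.58.1 served as alternatives, with other scalings, filters, covariates and left-out libraries. The members, gene lists, sums and motifs were chosen with earlier results of these data known. Sums over related genes were fitted beside the single genes. Named beside the members were genes holding at least 5% of a sum, the 2 largest changes per list and comparison, Hoxb13, and the 5 genes most like H2-T3 and the sum of H2-K1 and H2-D1. The 5 genes most like H2-T23, Igtp, Ciita as a correlate, and the neighbours and unadjusted calls outside this rule (H2-T24, Gm7030, Abcf1, Ifngr1) were named after their values were seen. So were H2-Q2, H2-Q4, Tapbp, the single genes of the marker sums and the interferon-stimulated genes named for their highest library. On simulated counts for model against control (16578 genes tested), the test recovered 111 of 200 genes changed 4-fold, with 10 false calls. H2-Q8 and H2-Q9 were not analysed here. The DXM group is not named in the study's RNA methods. Separate mice are assumed from the labels, and p-values set a group difference against the spread between these samples. The main fit counts model 1 and model 2 as separate mice, so the spread behind its SEs and p-values may be understated. For 1 gene of the regulator list, no value is reported here.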

Additional observations from a re-analysis of the deposited data

How the results depend on the processing

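Of all genes, edgeR called 0 in each comparison. DESeq2 called 46, 5 and 51 in model against control, Rhy against model and DXM against model, limma on log2(FPKM + 0.1) called 0, 2 and 2, the fit on only the groups compared called 1, 0 and 2, and the fit on every gene with any count called 1, 0 and 0. With 1 library left out the counts were 0 to 1, 0 to 1 and 0 to 0, with the 1 call made without model 3 or DXM 3 in the first comparison and without model 3 in the second. The other pathway genes called stayed at 0 in all 23 alternatives of each comparison. With 1 library left out, log2 fold changes in model against control were -4.60 to -0.29 for H2-T23, -3.37 to -0.17 for H2-T22, -1.26 to -0.28 for the sum of H2-T10 and H2-T22 and -2.07 to -0.30 for the sum of T-region genes. On log2(FPKM + 1), which understates changes of low genes, H2-T22 was at -1.10, 1.87 and 2.67 in the 3 comparisons, and H2-T23 at -1.86, 2.82 and 3.72. With Hoxb13 as a covariate, H2-T23 was at 3.37 and H2-T22 at 3.27 in DXM against model, and the sum of H2-Q6 and H2-Q7 at -0.08.

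With a replicate block, edgeR called 0 genes in each comparison, and H2-T23 was at -2.63, 3.20 and 4.17. The shared numbers did not pair the mice: 6 of 18 same-numbered pairs had correlated deviations above 0.1, against 15 of 36 others, and 5 of 12 libraries were closest to their own number.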
